A study of Homo sapiens with 12 samples.

Results

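The TNF receptor complex and its survival genes were followed as a set of 10 genes, *TNFRSF1A*, *TRADD*, *RIPK1*, *TRAF1*, *TRAF2*, *BIRC2*, *BIRC3*, *XIAP*, *CFLAR* and *BCL2L1*, chosen by name from the 26364 gene symbols counted in the series. All 10 were found, and each was followed through the 12 RNA-seq libraries. The libraries come from HCT116, an established human colon carcinoma cell line. HCT116 WT cells and p65-deficient cells, clone 32, received no inhibitor, the TOP1 inhibitor camptothecin (CPT) or the TOP2 inhibitor ICRF193. Both inhibitors were given at 5 µM for 2 h before sampling at 0 h, and 20 ng/ml TNFα was then added for 1 h. The stimulated libraries with an inhibitor therefore also come from cells 1 h further from its addition, and this time and TNFα cannot be told apart in those pairs. The p65-deficient cells were a single-cell clone made with CRISPR-Cas9 according to the study's methods, although the deposited titles read shRNA p65. They are 1 clone, so that the loss of p65 and the clone cannot be told apart. Each of the 12 conditions has a single library, and the matched pairs of libraries described beside each test took the place of replicates.

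TNFα binds the receptor TNFR1, which gathers the adaptor TRADD, the kinase RIPK1, TRAF proteins and the ubiquitin ligases cIAP1 and cIAP2 into a membrane complex. Ubiquitin chains made there recruit the kinases that release NF-κB, and NF-κB in turn raises transcription of genes that restrain the complex or protect the cell. When this protection is missing, the same receptor can lead through FADD and caspase-8 to apoptosis or through RIPK1 to necroptosis.

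The WT libraries held 16300210 to 22051046 counted reads each, and those of p65-deficient cells 8101212 to 20524958. Of the latter, 4 were shallow, with 8101212 to 8755001 reads: the library with ICRF193 at 0 h and the 3 libraries stimulated for 1 h. Depth therefore differed together with TNFα in the p65-deficient pairs lacking inhibitor or treated with CPT, and the effects of both cannot be told apart. *RELA*, which encodes p65, had 694 to 909 normalized counts in WT cells and 548 to 673 in p65-deficient cells (a normalized count is the read count divided by the DESeq2 size factor of its library). The transcript was lower but present, and the counts do not measure p65 protein. Of 7 colon epithelial markers, 6 reached 20 reads in at least 1 library, with *VIL1* below that, and their summed level was 3600 to 4760 CPM. Leukocyte markers summed to at most 1.13 CPM, endothelial markers to at most 1.56 and fibroblast markers to at most 13.9. The 95% intervals given with ratios of 2 libraries are exact (Clopper-Pearson). They cover nothing but counting error and take each read as an independent molecule. A ratio compares the 2 libraries and not the conditions.

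The promoters are shown first, because *BIRC3*, the member with the largest rise after TNFα in WT cells, lies beside its relative *BIRC2*. Over all WT pairs *BIRC2* did not pass the test, but it was higher after TNFα in both pairs without CPT. In the hg19 coordinates of the count files, *BIRC3* lies on the plus strand of chromosome 11 from 102188181 to 102210135 and *BIRC2* on the same strand from 102217913 to 102249401, with 7777 bases between them. The RefSeq promoter table (GRCh38.p14, 250 bases before to 50 bases after each start site) held 20 promoters of 9 of the 10 genes. *TRADD* was not among them. These promoters were searched on both strands for the 10-base κB consensus, the sequence recognised by NF-κB. The 250 bases before the *BIRC3* start site (chr11:102317234-102317483, plus strand), before a *BIRC2* start site (chr11:102346964-102347213, plus strand) and 50 bases of the *CFLAR* promoter that holds a match (chr2:201118596-201118645, plus strand) read as follows, with matches to the consensus in capitals.

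BIRC3: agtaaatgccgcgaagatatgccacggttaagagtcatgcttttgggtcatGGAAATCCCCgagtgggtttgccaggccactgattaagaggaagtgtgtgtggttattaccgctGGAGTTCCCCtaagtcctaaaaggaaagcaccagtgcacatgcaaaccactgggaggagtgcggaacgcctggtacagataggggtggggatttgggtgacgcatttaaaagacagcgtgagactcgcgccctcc
BIRC2: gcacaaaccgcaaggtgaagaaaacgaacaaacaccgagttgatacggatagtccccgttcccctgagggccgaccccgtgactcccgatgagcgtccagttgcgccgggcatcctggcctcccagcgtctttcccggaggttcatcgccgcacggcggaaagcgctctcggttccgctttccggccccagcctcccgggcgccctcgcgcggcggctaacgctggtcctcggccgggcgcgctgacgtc
CFLAR: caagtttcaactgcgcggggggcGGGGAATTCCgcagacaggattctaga

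The *BIRC3* promoter held 2 matches, GGAAATCCCC from -199 to -190 and GGAGTTCCCC from -135 to -126 relative to the start site, both read on the minus strand. Of the 4 *CFLAR* promoters in the table, 1 held a match, GGGGAATTCC from -97 to -88. Neither of the 2 *BIRC2* promoters, nor any promoter of *TNFRSF1A*, *RIPK1*, *TRAF1*, *TRAF2*, *XIAP* or *BCL2L1*, held the consensus in this window. Of all 35116 promoters in the table, 11.3% held at least 1 match and 2.04% held at least 2. A match is a stretch of letters and not a measured binding site, and a relation between matches and the TNFα response was not tested.

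**Figure D1:**
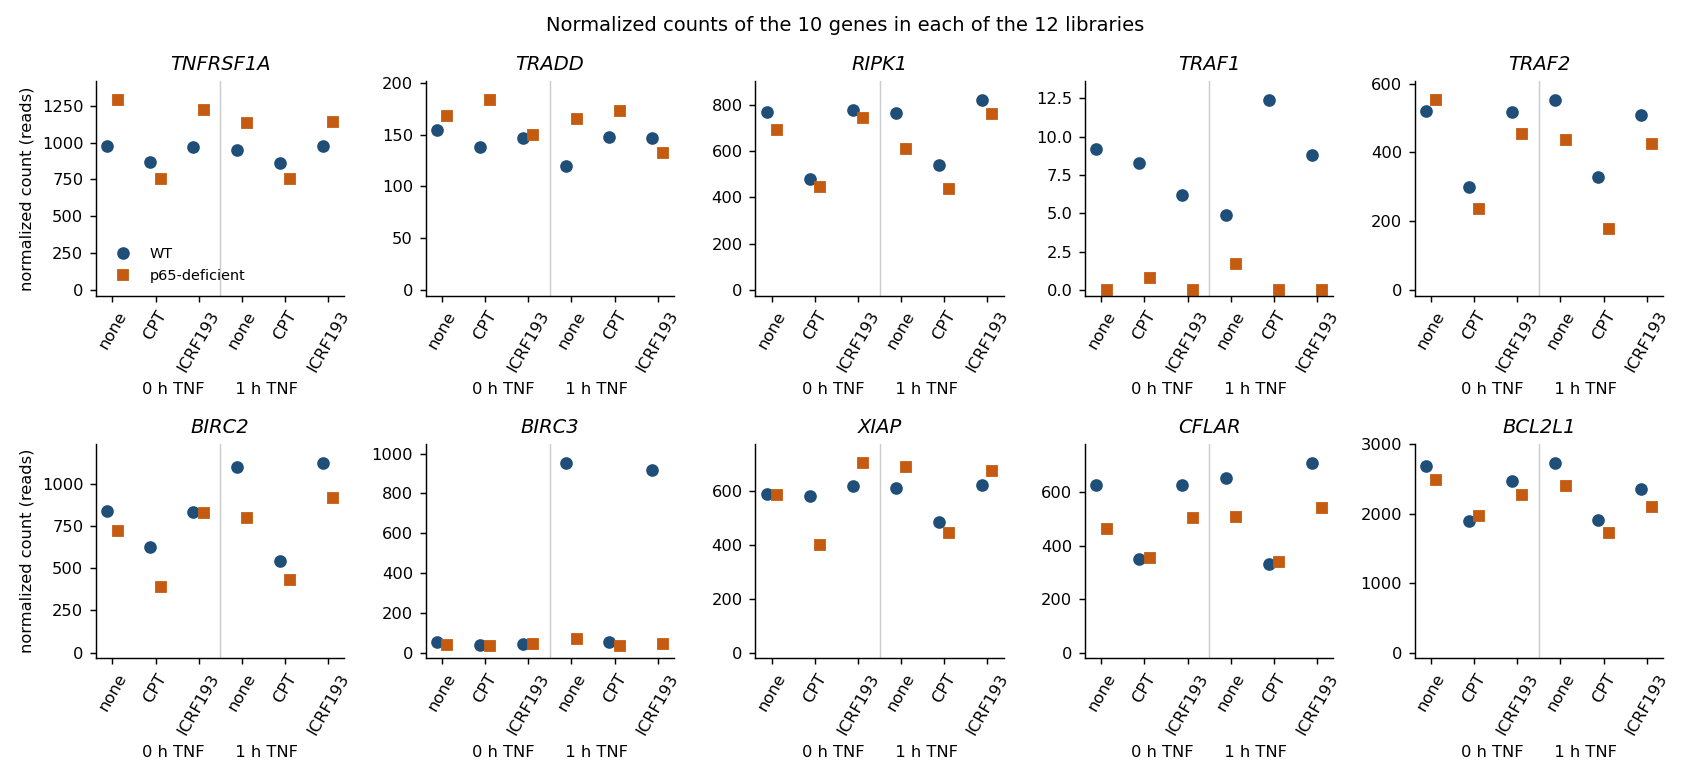
Normalized counts (reads divided by the library's size factor, vertical axis, starting near 0) of the 10 genes in each of the 12 libraries, grouped by inhibitor and TNFα time on the horizontal axis. Blue circles are WT and orange squares p65-deficient libraries, with 1 library per point. *BIRC3* stands at 916 to 954 in 2 WT libraries and at 32.8 to 69.7 in the other 10, and most other genes are lowest in the CPT libraries.

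The 10 genes spanned a wide range of levels. Per kilobase of exon, *BCL2L1*, which encodes the anti-apoptotic protein BCL-XL, had the highest median normalized count over the 12 libraries, 903 (range 674 to 1067). *TNFRSF1A*, which encodes TNFR1, followed with a median of 436 (337 to 579), and the ranges of these genes did not overlap. *TRAF2* (median 196 per kilobase, 77.5 to 242), *BIRC2* (190, 91.5 to 264) and *RIPK1* (185, 112 to 212) had overlapping ranges, so that their order was not resolved. *TRADD* had a median of 100 per kilobase (81.1 to 124), which overlapped *RIPK1*, and *XIAP*, a direct inhibitor of caspases, 70.4 (46.8 to 82.7), which overlapped *TRADD*. *CFLAR*, which encodes the caspase-8 inhibitor c-FLIP, had 31.8 per kilobase (20.9 to 44.6) over the 15921 exonic bases assigned to it, below *XIAP* in every library. *BIRC3* had a median of 6.39 per kilobase but reached 138, and *TRAF1* had 0.718.

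In hg19 the receptor gene *TNFRSF1A* lies on chromosome 12 from 6437923 to 6451283 (minus strand), *TRADD* on chromosome 16 from 67188089 to 67193812 (minus strand) and *RIPK1* on chromosome 6 from 3077058 to 3115421 (plus strand). *TRAF1* (123664671 to 123691451, minus strand) and *TRAF2* (139780965 to 139821067, plus strand) are both on chromosome 9. *XIAP* lies on chromosome X from 122993662 to 123047829 (plus strand), *CFLAR* on chromosome 2 from 201980827 to 202037411 (plus strand) and *BCL2L1* on chromosome 20 from 30252261 to 30310656 (minus strand). Overlapping annotation touched *BCL2L1* and *CFLAR*. Reads were counted without strand, and reads falling on exons of more than 1 gene were dropped. *ABALON*, on the opposite strand, shares 930 bases with *BCL2L1*, 36.3% of the exonic bases of *BCL2L1*, and had 221 to 575 reads per library. Reads of the 2 genes cannot be told apart in the shared stretch, and the level of *BCL2L1* per kilobase leaves that stretch uncounted. *CFLAR-AS1*, opposite *CFLAR*, shares 158 bases (0.992% of the *CFLAR* exonic bases) and had 3 to 32 reads. No exon of the other 8 genes overlapped another gene of the files.

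The response to TNFα was examined to find which of the members are themselves TNFα-induced. *BIRC3*, which encodes the ubiquitin ligase cIAP2, was the most strongly induced member. In unstimulated WT cells it had 54.5 normalized counts in the absence of inhibitor, 39.0 with CPT and 44.2 with ICRF193, and after 1 h of TNFα it had 954, 54.7 and 916. The 2 libraries with TNFα and no CPT thus stood apart from the other 4 WT libraries. Without inhibitor the count rose 17.5-fold between the 2 libraries (log2 ratio 4.13, 95% interval 3.81 to 4.47), and with ICRF193 20.7-fold (4.37, 3.96 to 4.81). With CPT the log2 ratio was 0.49, and its interval of -0.06 to 1.04 included 0.

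Over the 3 WT pairs, *BIRC3* rose by a log2 fold change of 3.71 (SE 0.27, edgeR adjusted p = 4.7e-09). It was the only one of the 10 members to pass the threshold of adjusted p under 0.05, and 0.613% of the 13707 genes tested rose past it. The median log2 fold change of the 10 members was 0.06 and that of all genes tested 0.00. The call for *BIRC3* was lost in DESeq2's Wald test (log2 fold change 3.15, adjusted p = 0.54) and in edgeR without the pair as a block (3.80, adjusted p = 1.0). Bulk counts are relative to each library, so that fewer cells that express a gene and less of its RNA per cell cannot be told apart.

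*BIRC2*, which encodes cIAP1, responded far less than its neighbour. Its normalized counts at 0 h and 1 h were 836 and 1098 in WT cells without inhibitor, 835 and 1124 with ICRF193, and 627 and 540 with CPT. The log2 ratios were 0.39 (0.28 to 0.51) and 0.43 (0.31 to 0.55) without CPT, and -0.22 (-0.36 to -0.07) with it, so that *BIRC2* was higher after TNFα in both pairs without CPT and lower in the pair with CPT, where the stimulated cells had also been longer with CPT. Over all 3 pairs the log2 fold change was 0.23 (SE 0.08) and did not pass the threshold (adjusted p = 0.64). Without the CPT pair it was 0.41, with an adjusted p of 2e-09. That fit held only the pairs without inhibitor and with ICRF193. It called 372 of 13625 genes tested, where the fit over all 3 pairs called 88 of 13707.

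The remaining members moved little within 1 h in WT cells. *TNFRSF1A* had log2 ratios of -0.04, -0.01 and 0.01 in the pairs with no inhibitor, CPT and ICRF193. *CFLAR* had 0.07, -0.08 and 0.18, of which the ICRF193 value excluded 0 (0.03 to 0.32). *XIAP* had 0.06 and 0.01 without CPT and -0.26 (-0.41 to -0.10) with CPT. *TRADD* had -0.37 (-0.67 to -0.06) without inhibitor against 0.10 and 0.00 in the other pairs. Over the 3 pairs, the log2 fold changes of *TNFRSF1A*, *TRADD*, *RIPK1*, *TRAF2*, *XIAP*, *CFLAR* and *BCL2L1* lay between -0.09 and 0.07, and none passed the threshold.

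The TNFα response of both cIAP genes was lower with CPT. In a fit over all 12 libraries, in which the libraries without inhibitor and with ICRF193 shared 1 TNFα effect, the TNFα effect in WT cells was lower with CPT for *BIRC3*, with a difference of -3.74 on the log2 scale (SE 0.35, adjusted p = 6.5e-17). For *BIRC2* the difference was -0.63 (SE 0.11, adjusted p = 5e-05). These were 2 of the 10 members tested, where 1.00% of the 15267 genes tested differed in either direction. The difference for *XIAP* was -0.29 (SE 0.12, adjusted p = 0.26). The call for *BIRC2* was lost when all libraries were thinned to the shallowest total (-0.51, adjusted p = 0.16) and in DESeq2's Wald test (-0.63, adjusted p = 1.0), whereas that for *BIRC3* passed in both. WT cells with CPT gave a single pair, which had a TNFα effect of its own in this fit. For any gene, the SE and p therefore hold no spread of the response with CPT, only that between pairs without CPT. The difference also takes in the longer time with CPT of the stimulated library.

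In p65-deficient cells no member passed the threshold for TNFα. At 0 h *BIRC3* had 38.6 normalized counts in the absence of inhibitor, 32.8 with CPT and 42.6 with ICRF193, and 69.7, 33.2 and 44.2 at 1 h. Its log2 ratio without inhibitor was 0.85 (0.23 to 1.46, 55 against 41 reads), in a pair whose depth differed. In the ICRF193 pair, in which both libraries were shallow, it was 0.05 (-0.76 to 0.87). Over the 3 pairs the log2 fold change of *BIRC3* was 0.40 (SE 0.23, adjusted p = 0.45). *TRAF2*, which encodes an adaptor that binds the cIAPs, had -0.26 (SE 0.09, adjusted p = 0.18). Of the 9 members tested by edgeR, 3 had an unadjusted p under 0.05 (*TRAF2*, *BIRC2* and *BCL2L1*), as had 1683 of the 12858 genes tested. EdgeR called 0.498% of the genes tested. DESeq2's Wald test called 0 members with 0 under that unadjusted p, where 343 genes were under it. *TRAF2* passed the threshold when the ICRF193 pair was left out (-0.35, adjusted p = 0.035).

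The TNFα effect on *BIRC3* was smaller in p65-deficient than in WT cells, with a difference of -3.30 on the log2 scale (SE 0.62, adjusted p = 0.018), in a test of the interaction over 6 pairs. It was the only member of 10 to pass, with 0.228% of the 14459 genes tested called. With every library thinned to the shallowest total the difference was -3.47 (adjusted p = 8.5e-04). The call was lost without the WT ICRF193 pair (-2.87, adjusted p = 0.14), without the p65-deficient pair lacking inhibitor (-3.66, adjusted p = 0.17) and in DESeq2's Wald test (-2.84, adjusted p = 1.0). For *BIRC2* the difference was -0.07 (SE 0.12, adjusted p = 0.88), and for *TRAF2* -0.32 (SE 0.11, adjusted p = 0.36).

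**Figure D2:**
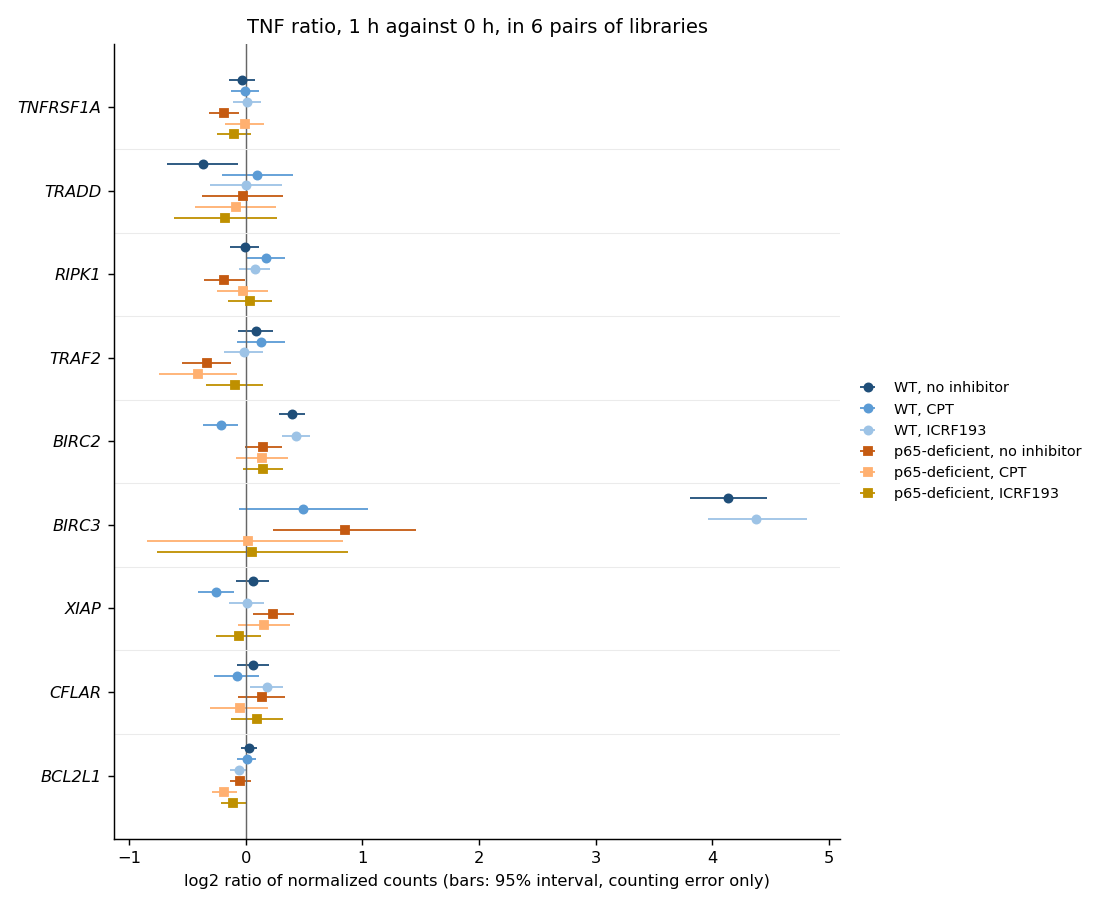
Log2 ratio of normalized counts at 1 h against 0 h TNFα (horizontal axis) for 9 genes in 6 pairs of libraries, WT as circles and p65-deficient as squares. Bars are 95% intervals for counting error only. *BIRC3* lies at 4.13 and 4.37 in WT cells without CPT, and the next highest ratio is 0.85. *TRAF1* is left out because its counts were too low.

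Transcript counts of most members, receptor complex and survival genes alike, were lower with CPT. Of the 9 members that passed the expression filter, 8 were lower with CPT over the 4 matched pairs and none was higher, where 25.1% of the 13993 genes tested were called lower and 23.2% higher. The median log2 fold change was -0.59 over the 9 members and 0.02 over all genes tested. *TRADD* was the tested member without a call (0.07, SE 0.11, adjusted p = 0.59). *TRAF1* did not pass the filter.

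Among the adaptors and the kinase, *TRAF2* fell by 1.00 on the log2 scale (SE 0.10, adjusted p = 1.8e-05). Its normalized count at 0 h went from 520 without inhibitor to 300 with CPT in WT cells, and from 551 to 234 in p65-deficient cells. At 1 h it went from 552 to 328 and from 437 to 176, and the 4 libraries with CPT, at 176 to 328, lay below the 8 without CPT, at 425 to 552. *RIPK1* had a log2 fold change of -0.59 (SE 0.07, adjusted p = 2.6e-05). Its normalized counts were 435 to 539 with CPT and 607 to 820 without, and the 4 log2 ratios were between -0.68 and -0.48. *TRADD*, by contrast, had 138 to 183 normalized counts with CPT and 120 to 168 without, and the ranges overlapped.

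The receptor gene *TNFRSF1A* had a log2 fold change of -0.42 with CPT (SE 0.10, adjusted p = 0.0056), and the size differed between the cell lines. In WT cells its normalized count was 974 without inhibitor and 868 with CPT at 0 h, and 951 and 865 at 1 h. In p65-deficient cells it was 1289 and 755 at 0 h, and 1135 and 751 at 1 h. The log2 ratios were -0.17 and -0.14 in WT cells and -0.77 and -0.60 in p65-deficient cells, with intervals that did not overlap between the lines. The difference between the lines was -0.57 (SE 0.10, adjusted p = 0.0025).

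*TRAF2* also differed, with log2 ratios of -0.79 and -0.75 in WT cells and -1.24 and -1.31 in p65-deficient cells (difference -0.51, SE 0.13, adjusted p = 0.032). The difference was -0.43 (SE 0.13, adjusted p = 0.055) for *XIAP* and 2.66 (SE 0.79, adjusted p = 0.064) for *BIRC3*, neither of which passed. The calls were 2 of 10 members tested, where 4.76% of the 14573 genes tested differed in either direction. Neither call held in every alternative. Without the p65-deficient pair at 0 h the difference was -0.46 (adjusted p = 0.094) for *TNFRSF1A* and -0.55 (adjusted p = 0.25) for *TRAF2*. For *TRAF2* the call was also lost without the p65-deficient pair at 1 h, which holds 2 of the shallow libraries (-0.45, adjusted p = 0.15), and with all libraries thinned to the shallowest total (-0.55, adjusted p = 0.072). DESeq2's Wald test called neither, with -0.54 (adjusted p = 0.054) for *TNFRSF1A* and -0.49 (adjusted p = 0.52) for *TRAF2*.

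Of the survival genes, *BIRC2* fell by 0.80 with CPT on the log2 scale (SE 0.09, adjusted p = 3.8e-05). Its log2 ratio in WT cells was -0.41 (-0.55 to -0.28) at 0 h and -1.02 (-1.16 to -0.89) at 1 h, and in p65-deficient cells it was -0.88 and -0.89. The 4 libraries with CPT held 390 to 627 normalized counts, below the 718 to 1124 of the other 8. *BIRC3* had a log2 fold change of -2.09 (SE 0.57, adjusted p = 0.011), which came mostly from the WT pair at 1 h (log2 ratio -4.12, -4.48 to -3.79). At 0 h its log2 ratios were -0.48 (-1.03 to 0.05) in WT and -0.24 (-0.85 to 0.37) in p65-deficient cells. In p65-deficient cells at 1 h the log2 ratio was -1.07 (-1.94 to -0.25), on 19 reads with CPT against 41 without. Without the WT pair at 1 h the log2 fold change was -0.55 and the call was lost (adjusted p = 0.071), as it was in DESeq2's Wald test (-1.36, adjusted p = 0.16).

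*CFLAR* fell by 0.71 on the log2 scale (SE 0.10, adjusted p = 1.1e-04). Its normalized counts were 332 to 354 in the 4 CPT libraries, whatever the line, against 626 to 710 in WT cells and 462 to 540 in p65-deficient cells without CPT. The log2 ratios were -0.84 and -0.98 in WT and -0.39 and -0.58 in p65-deficient cells, and the difference between the lines was 0.43 (SE 0.13) with an adjusted p of 0.065. *XIAP* had a log2 fold change of -0.37 (SE 0.10, adjusted p = 0.0082). In WT cells at 0 h it was 589 without inhibitor and 582 with CPT, a log2 ratio of -0.02 (-0.16 to 0.13), whereas the other 3 pairs had -0.33, -0.55 and -0.63. *BCL2L1* had -0.46 (SE 0.05, adjusted p = 1.2e-05), with 1725 to 1963 normalized counts in the CPT libraries and 2099 to 2732 in the other 8. Its antisense partner *ABALON* had a log2 fold change of 0.02 (SE 0.08, adjusted p = 0.86).

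**Figure D3:**
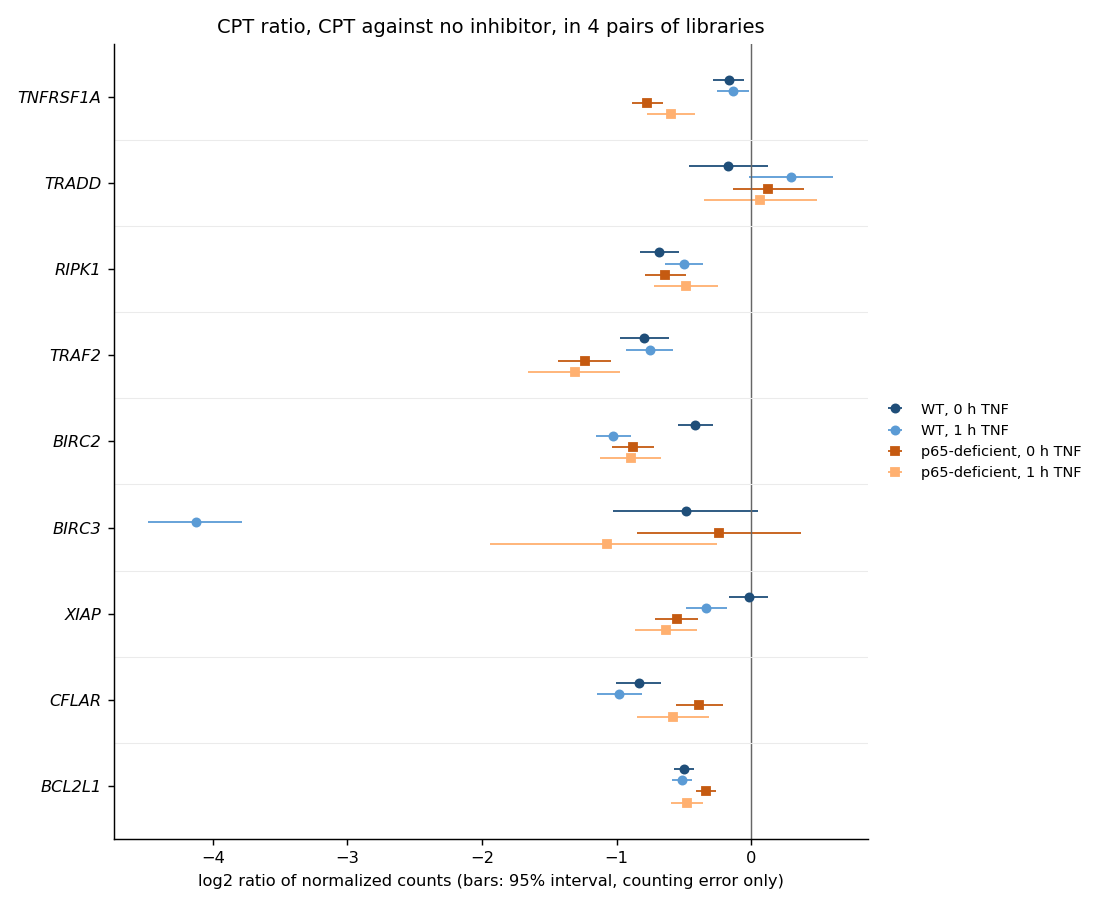
Log2 ratio of normalized counts with CPT against no inhibitor (horizontal axis) for 9 genes in 4 pairs of libraries, WT as circles and p65-deficient as squares. Bars are 95% intervals for counting error only. *RIPK1*, *TRAF2*, *BIRC2*, *CFLAR* and *BCL2L1* lie below 0 in all 4 pairs, *TRADD* lies around 0, and *TNFRSF1A* falls at -0.17 and -0.14 in WT against -0.77 and -0.60 in p65-deficient cells.

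Cells given both CPT and TNFα were also set against cells given neither, as ratios of 2 libraries. In WT cells *BIRC3* stood at its starting level, with a log2 ratio of 0.01 (-0.46 to 0.47), while *CFLAR* was at -0.91 (-1.08 to -0.75), *TRAF2* at -0.67 (-0.84 to -0.50), *BIRC2* at -0.63 (-0.76 to -0.50) and *XIAP* at -0.27 (-0.42 to -0.13). In p65-deficient cells, where the stimulated library was shallow, *TRAF2* was at -1.65 (-1.96 to -1.34), *TNFRSF1A* at -0.78 (-0.94 to -0.63), *BIRC2* at -0.74 (-0.95 to -0.54) and *CFLAR* at -0.44 (-0.68 to -0.21). *TRADD* was at -0.07 in WT and 0.04 in p65-deficient cells, with intervals that included 0.

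The CPT log2 fold changes are also given by genomic span, from the shortest gene to the longest. *TRADD* (5.72 kb) had 0.07, *TNFRSF1A* (13.4 kb) -0.42 and *BIRC3* (22.0 kb) -2.09. *BIRC2* (31.5 kb) had -0.80, *RIPK1* (38.4 kb) -0.59 and *TRAF2* (40.1 kb) -1.0. *XIAP* (54.2 kb) had -0.37, *CFLAR* (56.6 kb) -0.71 and *BCL2L1* (58.4 kb) -0.46. These are values of 9 genes in the same 8 libraries, and a relation with span was not tested.

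The genes around the receptor complex were described by lists. In the ubiquitin and kinase arm, which holds further TRAF proteins, the linear ubiquitin ligase, deubiquitinases and the IKK and TAK1 kinases, 15 of 26 genes tested were lower with CPT, 2 were higher and 9 were not called, beside 25.1% lower and 23.2% higher among all genes tested. DESeq2's Wald test called 11 genes of the list in place of 17, and 5296 of all 13993 genes tested in place of 6763. *TNFAIP3*, which encodes the ubiquitin-editing protein A20, had a log2 fold change of -1.55 (adjusted p = 0.0056), *TRAF6* -1.21 (adjusted p = 7.4e-06), *TANK* -0.58 and *TRAF5* -0.51. For *TNFAIP3* the value was -0.59 (adjusted p = 0.04) without the WT pair at 1 h, and the call was lost in the Wald test (-1.11, adjusted p = 0.12). The median of the list was -0.24. Of 13 genes of the caspase and necroptosis arm, 2 were lower and 2 higher, with *FADD*, the adaptor of caspase-8, at -1.69 (SE 0.10, adjusted p = 1.8e-07), *CYCS* at 0.28 and *BID* at 0.17, and 9 were not called. The call for *BID* was lost without the p65-deficient pair at 0 h (0.17, adjusted p = 0.058) or at 1 h (0.13, adjusted p = 0.12). Their median was -0.05.

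Of 6 other survival genes tested, 2 were lower with CPT. They were *MCL1*, a short-lived relative of BCL-XL, at -1.59 (SE 0.05, adjusted p = 4.1e-10) and *BIRC6* at -0.34. *MCL1* had 1120 to 1317 normalized counts in the CPT libraries and 3124 to 4487 in the others. Of the 10 pro-apoptotic BCL2 family genes, 4 were lower and 3 higher with CPT, against 25.1% and 23.2% of all genes tested. The Wald test called 5296 of all 13993 genes in place of 6763, and 4 of the list in place of 7. The 4 of largest change were *HRK* (-0.60), *BAK1* (-0.42), *PMAIP1* (0.39), which encodes NOXA, and *BOK* (-0.36). The Wald test did not call *HRK* (adjusted p = 0.23) or *PMAIP1* (adjusted p = 0.16). Leaving out 1 of the 4 pairs ended the call in 3 fits each for *HRK* and *PMAIP1*, and in 1, without the WT pair at 0 h, for *BAK1* (-0.29, adjusted p = 0.067).

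**Figure D4:**
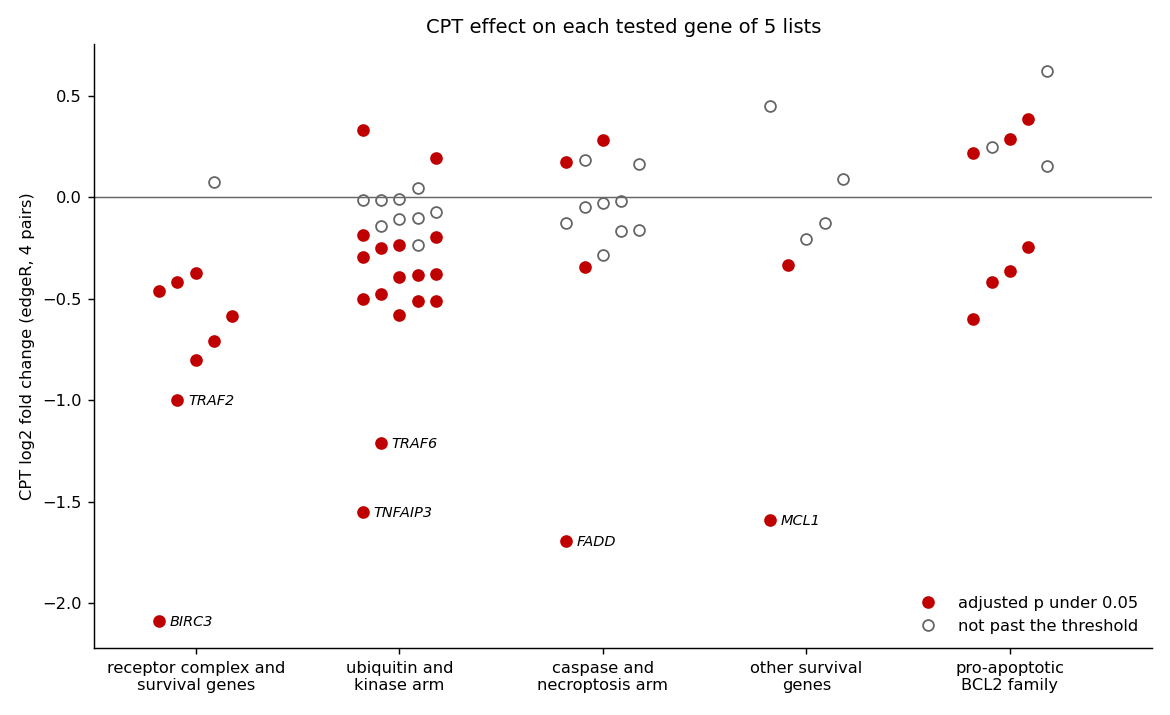
CPT log2 fold change over 4 pairs (edgeR, vertical axis) for each tested receptor complex and survival gene and each tested gene of 4 further lists. Filled points passed an adjusted p under 0.05 and open points did not. Of the receptor complex and survival genes 8 of 9 lie below 0 and passed, and *FADD*, *MCL1*, *TNFAIP3* and *TRAF6* lie lowest in the other lists.

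The TNFα response of these neighbours is given beside all genes tested in WT cells, of which edgeR called 0.613% of 13707 higher. In WT cells *TNFAIP3* rose by a log2 fold change of 3.12 (SE 0.15, adjusted p = 1.2e-12) and *IKBKE*, an IKK-related kinase, by 0.83 (SE 0.12, adjusted p = 3.4e-04), 2 of 26 in the ubiquitin and kinase arm. *BBC3*, which encodes PUMA (0.51, adjusted p = 0.004), and *PMAIP1* (0.35, adjusted p = 0.015) were the 2 of 10 pro-apoptotic genes that rose. The 13 caspase and necroptosis genes and the 5 other survival genes tested held 0 calls by edgeR and 0 by DESeq2, with 2 and 0 genes at an unadjusted p under 0.05. Of all 13707 genes tested, 595 had such a p by edgeR, and DESeq2 called 25. DESeq2's Wald test did not call *BBC3* or *PMAIP1*, and without the WT pair lacking inhibitor neither passed (0.40, adjusted p = 0.076, and 0.27, adjusted p = 0.058). *PMAIP1* did not pass without the WT ICRF193 pair either (0.24, adjusted p = 0.31). With CPT the TNFα effect in WT cells was lower for *TNFAIP3* (difference -1.58, adjusted p = 3.8e-05) and *PMAIP1* (-0.52, adjusted p = 2.7e-04), and for *BBC3* the difference was -0.48 (adjusted p = 0.16). Both calls were lost in the Wald test (-1.56, adjusted p = 0.27, for *TNFAIP3* and -0.51, adjusted p = 1.0, for *PMAIP1*), and that for *PMAIP1* also without the WT ICRF193 pair (-0.48, adjusted p = 0.095). Between the lines, the TNFα effect in p65-deficient minus WT cells was -2.90 for *TNFAIP3* (adjusted p = 3.7e-05) and -0.74 for *BBC3* (adjusted p = 0.03). The call for *TNFAIP3* held in the Wald test (-2.65, adjusted p = 0.0055). That for *BBC3* was lost there (-0.73, adjusted p = 0.29), with total-count scaling (-0.69, adjusted p = 0.062), with thinned libraries (-0.71, adjusted p = 0.051) and in 4 of the 6 fits that left out a pair.

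ICRF193 was compared with no inhibitor in the same way, and the 4 libraries without inhibitor were shared with the CPT comparison. *BCL2L1* was the member that changed, by a log2 fold change of -0.16 (SE 0.03, adjusted p = 8.7e-04). It was lower in all 4 pairs, from 2684 to 2465 and from 2732 to 2361 normalized counts in WT cells and from 2479 to 2261 and from 2400 to 2099 in p65-deficient cells. The other 8 members tested had log2 fold changes between -0.11 and 0.12 without a call, and 1.58% of the 13631 genes tested were called lower. *ABALON* had -0.20 (SE 0.07, adjusted p = 0.13). The call for *BCL2L1* was lost without the WT pair at 1 h (-0.14, adjusted p = 0.085), without the pair as a block (-0.16, adjusted p = 1.0) and with all 12 libraries in the fit (-0.16, adjusted p = 0.17). Of the 4 further lists, *BBC3* alone was called by edgeR (0.29, adjusted p = 0.017), a call that ended when any 1 of the 4 pairs was left out, and DESeq2's Wald test called none.

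p65-deficient and WT cells were compared in 6 matched pairs. Of 9 members tested, 6 were lower in p65-deficient cells and none was higher, where 16.9% of the 13730 genes tested were called lower and 15.2% higher. *BIRC3* had the largest difference, -2.16 (SE 0.48, adjusted p = 0.0039). It rested mostly on the libraries with TNFα and no CPT, where the log2 ratios were -3.77 and -4.37. At 0 h they were -0.50 (-1.02 to 0.01), -0.25 and -0.05. With CPT at 1 h the log2 ratio was -0.72 (-1.53 to 0.02), on 75 reads in WT against 19 in p65-deficient cells. The other 5 were *BIRC2* (-0.32, SE 0.07, adjusted p = 0.0038), *TRAF2* (-0.28, SE 0.09, adjusted p = 0.034), *CFLAR* (-0.25, SE 0.07, adjusted p = 0.015), *RIPK1* (-0.17, SE 0.05, adjusted p = 0.026) and *BCL2L1* (-0.11, SE 0.04, adjusted p = 0.048). *XIAP* had -0.02 (SE 0.08, adjusted p = 0.86) and *TRADD* 0.20 (SE 0.09, adjusted p = 0.12).

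Of the 6 calls, that for *BIRC2* held with total-count scaling, in DESeq2's Wald test and in each fit that left out 1 of the 6 pairs, and the others were each lost in at least 1 of these. *TRAF2* lost its call in 5 of those 6 fits (adjusted p 0.011 to 0.078), keeping it without the pair lacking inhibitor at 0 h, and *BCL2L1* also in 5 (0.0047 to 0.15), keeping it without the CPT pair at 0 h. *RIPK1* lost it in 3, without either pair lacking inhibitor or the CPT pair at 1 h (0.068 to 0.098), and *CFLAR* in 2, without the pair lacking inhibitor at 0 h (0.085) or the ICRF193 pair at 1 h (0.062). With total-count scaling the adjusted p was 0.061 for *TRAF2*, 0.071 for *RIPK1* and 0.12 for *BCL2L1*. In the Wald test it was 0.097 for *BIRC3*, 0.052 for *RIPK1* and 0.09 for *BCL2L1*. Without the pair as a block *BIRC3* was the member called (-2.99, adjusted p = 0.048).

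With the 2 pairs that hold no shallow library, none of these 6 passed the threshold. There *BIRC3* had -0.39 (adjusted p = 0.55), *BIRC2* -0.44 (adjusted p = 0.091), *TRAF2* -0.12, *CFLAR* -0.22, *RIPK1* -0.13 and *BCL2L1* -0.03. Both of these pairs are at 0 h, so that TNFα and depth were left out together. *CFLAR* was lower in p65-deficient cells in the 4 pairs without CPT (log2 ratios -0.44 to -0.31) and stood at 0.01 and 0.04 in the CPT pairs. *CFLAR-AS1*, at 15 to 32 reads in WT and 3 to 13 in p65-deficient libraries, had a log2 fold change of -0.83 (SE 0.24, adjusted p = 0.017), and *ABALON* was higher in p65-deficient cells (0.49, SE 0.07, adjusted p = 1e-04).

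*TNFRSF1A* differed in direction with the inhibitor. It was higher in p65-deficient cells in the 4 pairs without CPT, with log2 ratios of 0.41, 0.33, 0.26 and 0.22, and lower in both pairs with CPT, at -0.20 in each. All 6 intervals excluded 0. Over the 6 pairs its log2 fold change was 0.15 (SE 0.08) and did not pass the threshold (adjusted p = 0.16).

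*TRAF1*, a TRAF family adaptor, was nearly undetected in p65-deficient cells. The 6 WT libraries held 14, 10 and 7 reads at 0 h (no inhibitor, CPT and ICRF193) and 6, 17 and 11 at 1 h. The 6 p65-deficient libraries held 0, 1, 0, 1, 0 and 0 reads in the same order, so that the lines did not overlap. Summed over each line this was 65 reads against 2, a level 21.7-fold higher in WT cells with a counting interval of 5.76 to 183. *TRAF1* did not pass the expression filter of this comparison. Without the filter its fitted log2 fold change, which depends on the prior count, was -4.06 (adjusted p = 1.1e-06), and in the 2 pairs without a shallow library it was -4.26 (adjusted p = 0.022). In those 2 pairs *TRAF1* passed the filter only through its WT libraries (14 and 10 reads against 0 and 1). Both fits rest on counts near 0 in p65-deficient cells and add no separate support to the reads themselves. In WT cells its TNFα log2 fold change was 0.11 (SE 0.39, adjusted p = 1.0), a test on few reads.

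**Figure D5:**
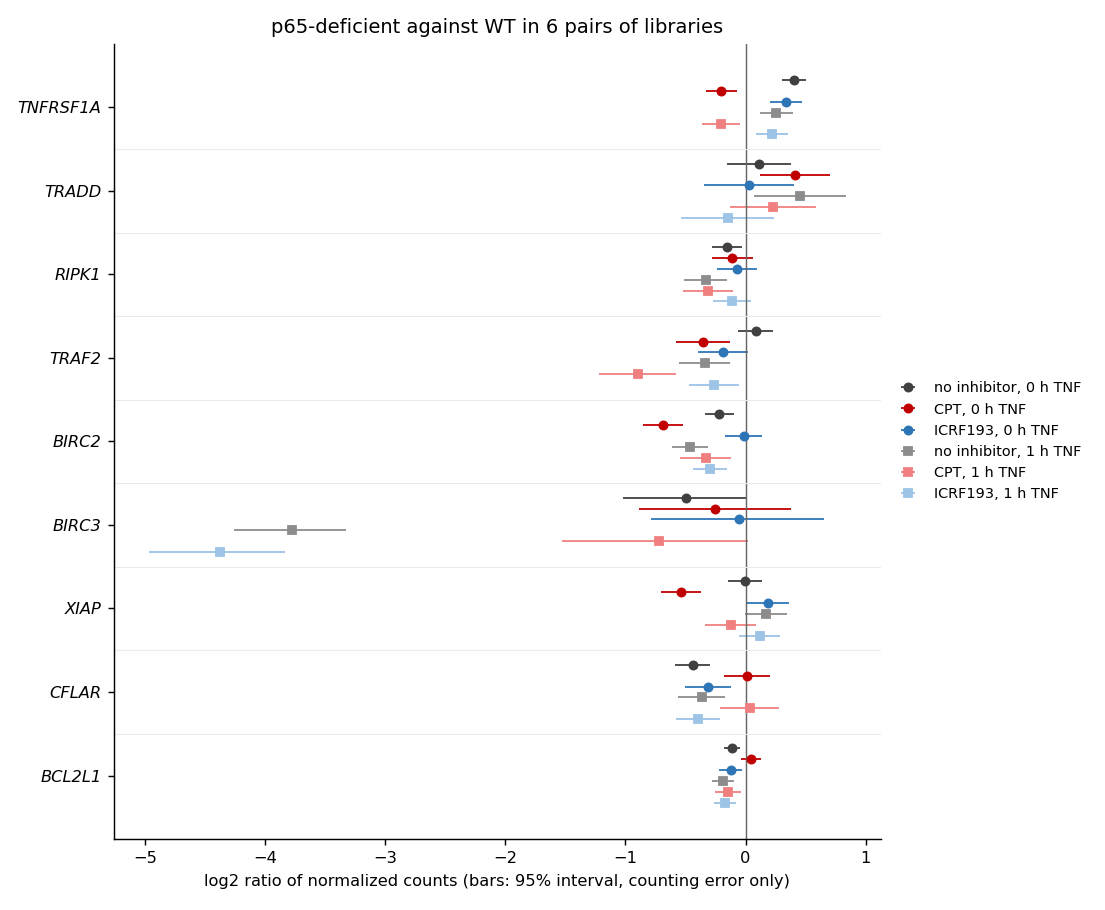
Log2 ratio of normalized counts in p65-deficient against WT cells (horizontal axis) for 9 genes in 6 pairs of libraries, circles for 0 h and squares for 1 h TNFα. Bars are 95% intervals for counting error only. *BIRC3* falls at -3.77 and -4.37 after TNFα without CPT, and *TNFRSF1A* lies above 0 in the 4 pairs without CPT and below 0 in the 2 pairs with CPT.

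In the lists around the complex, 5 of 13 caspase and necroptosis genes were higher in p65-deficient cells and none was lower, beside 15.2% higher and 16.9% lower among all genes tested. Those of largest change were *CASP6* (0.28), *MLKL* (0.28), *FADD* (0.28) and *CASP8* (0.25). In the ubiquitin and kinase arm 8 of 26 were lower and 2 higher, led by *TNFAIP3* (-1.86) and *TANK* (-0.96, SE 0.06, adjusted p = 2.5e-08), with *CYLD*, a deubiquitinase, at -0.42 and *MADD* at 0.23. The Wald test called 6 genes of this arm in place of 10, without *TNFAIP3* (-1.54, adjusted p = 0.052). Among all 13730 genes tested it called 3303 in place of 4408. *TNFAIP3* differed most in the libraries with TNFα and no CPT, with 1102 and 1022 normalized counts in WT against 76.5 and 82.1 in p65-deficient cells. It was also lower in p65-deficient cells at 0 h without inhibitor (93.9 in WT against 63.8) and with ICRF193 (117 against 75.7). With CPT it had 151 in WT against 62.9 at 1 h, and 44.0 in WT against 53.1 at 0 h. *MCL1* (-0.26) and *BIRC5* (-0.16) were the 2 of 6 other survival genes that were lower, and among 10 pro-apoptotic genes *BAD* was lower (-0.29) and *BIK* higher (0.29). In the 2 pairs without a shallow library, *TANK* (-0.90, adjusted p = 7.9e-04) and *BIK* (0.52, adjusted p = 0.049) passed, and none of the other list genes named here did, with *TNFAIP3* at -0.19 (adjusted p = 0.77).

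Across the 12 libraries the members fell into few patterns, given here as Pearson's r of log2(CPM + 1) over libraries that share treatments and cell lines, and without a test. *RIPK1*, *TRAF2*, *BIRC2* and *CFLAR* had r between 0.84 and 0.92 with each other, and *BCL2L1* had 0.92 with *TRAF2*. *TRADD* had a negative r with each of the other 9, from -0.65 with *BIRC2* to -0.08 with *TNFRSF1A*. *BIRC3* had 0.62 with *BIRC2* and -0.03 with *TNFRSF1A*. Among 11308 genes with a mean of at least 50 reads, those most like *BIRC3* were *TNFAIP3* (0.97), *IRF1* (0.97) and *CD83* (0.96). Those most like *BIRC2* were *IFNGR1* (0.98), *UGCG* and *MASTL*, and those most like *CFLAR* were *ZNFX1* (0.99), *ORC6* and *FASTKD5*.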

How the data were processed

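RNA-seq was analysed in 12 HCT116 libraries. The deposited values are raw counts: the authors trimmed reads with Trimmomatic and mapped them with STAR, per the labels, to hg19, and counted reads on the exons of each gene symbol with featureCounts 1.5.0, unstranded, dropping reads shared between genes. Counts are per gene without normalization, and 1 library stands for each condition. Libraries held 8101212 to 22051046 reads.

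Ratios of 2 libraries used DESeq2 size factors over all 12 libraries and no pseudocount. Tests used edgeR 4.0.16 (TMM, expression filter, quasi-likelihood test, matched pair as a block, Benjamini-Hochberg adjustment over all genes tested, threshold 0.05). They were also run on simulated counts drawn without differences between pairs. Such counts cannot show how the tests behave where pairs respond differently. Pairs differ in line, inhibitor or TNFα and stand in for replicates, so that p-values measure the spread between these pairs only. Each SE was computed as the log2 fold change over the square root of the test statistic. The members and lists were chosen with earlier results of these data known. All 10 members were described. Of each list, genes past the threshold in the comparison described were named, at most 4 of largest change, together with those past it for TNFα in WT cells, and *CFLAR-AS1* and *ABALON* as overlapping genes. The values of a few genes of the lists are not reported here. Most alike genes were the 3 of highest r, named for 3 members.

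Alternatives were DESeq2 size factors, total-count scaling, TMM for ratios, a pseudocount of 1, no filter, DESeq2 1.42.0, thinned libraries, no block, all 12 libraries and leaving out each pair. Pairs without a shallow library were added after seeing the data. R 4.3.3 and, under Python 3.11.15, scipy 1.17.1, pandas 2.3.3 and matplotlib 3.10.9 were used.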

Additional observations from a re-analysis of the deposited data

Results flagged for a closer look

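For 4 members an effect differed between groups by a test of the difference itself in edgeR. The TNFα effect on *BIRC3* in p65-deficient minus WT cells was -3.30 on the log2 scale, and in WT cells with CPT minus without CPT it was -3.74. The TNFα effect on *BIRC2* in WT cells with CPT minus without CPT was -0.63. In both differences between CPT and no CPT, the CPT side was a single pair. The CPT effect in p65-deficient minus WT cells was -0.57 for *TNFRSF1A* and -0.51 for *TRAF2*. Of these differences, DESeq2's Wald test called that of *BIRC3* between CPT and no CPT and none of the others. With libraries thinned to the shallowest total, the calls for *BIRC2* and *TRAF2* were lost. For *TNFRSF1A* the direction of the difference between the cell lines also turned with CPT, from 0.41 without inhibitor at 0 h to -0.20 with CPT.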

How the results depend on the processing

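Without replicates, a pair that responds differently enters the error only in part, and for TNFα in p65-deficient cells 2 of 3 pairs differ in depth. For CPT 8 members and 6763 genes were called, against 7 or 8 members and 5180 to 7557 genes under every alternative run. For ICRF193 1 member and 296 genes were called. Without the replicate block and with all 12 libraries in the fit 0 members were called, with 3 and 32 genes. DESeq2's Wald test called 83 genes, and 190 were called with thinned libraries. For TNFα in WT cells, 1 member and 88 genes were called. There were 2 members and 127 genes without the filter, and 0 members and 25 genes in the Wald test. Without the replicate block there were 0 members and 0 genes, and edgeR gave 97 genes and 1 member (*BIRC3*) an unadjusted p under 0.05.

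For TNFα in p65-deficient cells 64 genes were called, against 39 with total-count scaling, 143 without the filter, 2 in the Wald test, 31 thinned and 0 without the replicate block, where 129 had an unadjusted p under 0.05. For its difference between the lines, 33 genes and 1 member were called, against 132 genes without the filter and 11 genes and 0 members in the Wald test. For CPT's change of the TNFα effect in WT cells 153 genes and 2 members were called, against 20 genes and 1 member in the Wald test and 47 genes and 1 member thinned. For the difference of the CPT effect between the lines 693 genes and 2 members were called, against 1093 genes and 5 members without the filter. There were 148 genes and 0 members in the Wald test, 402 genes and 2 members thinned, and 735 genes and 4 members with DESeq2 size factors. For p65-deficient against WT cells 4408 genes and 6 members were called, against 2043 genes and 1 member without the replicate block. In pairs without a shallow library 521 genes and 1 member (*TRAF1*) were called. There were 4238 genes and 3 members with total-count scaling, and 3303 genes and 3 members in the Wald test. The causes were not tested.

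Leaving out each pair in turn gave 5254 to 6326 genes and 7 to 8 members for CPT, 148 to 322 genes and 0 to 1 members for ICRF193, 60 to 372 genes and 1 to 2 members for TNFα in WT cells, and 14 to 581 genes and 0 to 1 members for TNFα in p65-deficient cells. It gave 5 to 96 genes and 0 to 1 members for the TNFα difference between the lines, 54 to 543 genes and 2 members for CPT's change of the TNFα effect, 277 to 1696 genes and 1 to 4 members for the CPT difference between the lines, and 3186 to 5137 genes and 3 to 6 members for p65-deficient against WT cells. Leaving out either CPT pair was not run for CPT's change of the TNFα effect. That difference needs the WT CPT pair. Without the p65-deficient CPT pair the design as set up could not be fitted. Scaling by TMM or total counts moved ratios of 2 libraries by at most 0.09 on the log2 scale.

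No paired replicate numbers exist in the labels, and the block is the matched treatment.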
